A study of Mus musculus with 8 samples.

Results

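The genes described are 10 canonical Wnt target and TCF factor genes, namely Axin2, Nkd1, Nkd2, Apcdd1, Notum, Sp5, Lef1, Tcf7, Tcf7l1 and Tcf7l2, in dermal fibroblasts of old and young mice. They were taken as every probe set that the platform annotation assigns to exactly 1 gene symbol among these 10, which gave 9 genes of 17097 with such a symbol, and 21 of the 45141 probe sets in the table. No probe set carries the symbol Tcf7, so that gene was not analysed here. Expression was measured on 8 Affymetrix arrays, 1 per mouse. The groups are 4 old male mice (18 months) and 4 young male mice (2 months), all of strain C57Bl/6. The labels name no transgene or treatment. After removal of the subdermis and collagenase digestion of the skin, cells bearing both Pdgfra and CD34 but no CD45, CD117, CD24, CD31 or EpCam were collected by sorting. RNA of 5000 cells per mouse was amplified for 21 cycles before hybridisation.

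In canonical Wnt signalling, Wnt ligands bind Frizzled and LRP receptors at the cell surface. A cytoplasmic complex that degrades beta-catenin is then held back, and beta-catenin enters the nucleus to bind the LEF/TCF proteins on DNA. Several genes switched on in this way encode inhibitors of the same pathway, so their transcripts are widely used as a readout of its activity. In skin, the pathway is known for specifying dermal fibroblasts in the embryo and for the signalling between dermal papilla and hair follicle.

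LEF/TCF proteins bind DNA that holds the letters CTTTGA or CTTTGT. These strings were searched on both strands in the 250 bases before each annotated start of the RefSeq promoter table (GRCm38.p6), and since they differ in their last letter no stretch counts as both. CTTTGA was present in 13.8% and CTTTGT in 16.5% of all 32851 windows, and 27.6% held either. Windows were used for 8 of the 10 genes, in 13 windows because Lef1, Tcf7 and Tcf7l2 have several starts, and 4 of the 13 held a match. That share is near the background. Apcdd1 and Notum are named only. The windows of Nkd2 (chr13:73847632-73847881, minus strand) and Axin2 (chr11:108920099-108920348, plus strand) held 0 matches. The window of Sp5 (chr2:70474673-70474922, plus strand) held 4, starting 221, 212, 204 and 104 bases before the start, and 31 of all windows (0.0944%) held 4 or more. Nkd2 is shown because its difference between the ages had the smallest p among these genes, Axin2 because it is the general readout of the pathway, and Sp5 because it had the most matches. These choices were made after the values were seen. Capitals mark the matches, of which the first is on the opposite strand.
Nkd2: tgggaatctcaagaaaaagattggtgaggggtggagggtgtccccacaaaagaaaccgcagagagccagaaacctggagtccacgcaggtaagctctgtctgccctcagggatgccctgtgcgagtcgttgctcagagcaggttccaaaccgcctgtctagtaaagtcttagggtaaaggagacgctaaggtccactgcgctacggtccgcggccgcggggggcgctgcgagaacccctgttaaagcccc
Axin2: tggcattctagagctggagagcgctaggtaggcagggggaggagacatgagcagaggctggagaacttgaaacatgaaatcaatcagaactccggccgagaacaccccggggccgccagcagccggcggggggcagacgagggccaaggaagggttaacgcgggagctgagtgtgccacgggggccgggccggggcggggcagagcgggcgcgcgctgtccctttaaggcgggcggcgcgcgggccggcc
Sp5: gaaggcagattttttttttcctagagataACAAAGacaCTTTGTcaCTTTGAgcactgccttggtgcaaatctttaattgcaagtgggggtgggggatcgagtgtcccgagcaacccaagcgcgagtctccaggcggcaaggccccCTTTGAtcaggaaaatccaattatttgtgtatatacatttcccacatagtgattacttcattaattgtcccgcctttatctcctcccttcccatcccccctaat
A match is a description of the letters and not a binding site. All 3 sequences run 5′ to 3′ along the gene.

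Array medians lay between 5.06 and 5.14 on the log2 scale. The arrays hold defining fibroblast genes at high levels. Dcn, a collagen-binding proteoglycan, averaged 13.08 in old and 13.03 in young mice, and Col1a1, the main collagen chain of the dermis, 13.08 in old and 13.13 in young mice. Cd34 of the sorting gate averaged 11.01 in old and 10.81 in young mice. The probe set of Pdgfra, the other positive sorting marker, averaged only 4.47 in old and 5.06 in young mice, below the median of all probe sets' means of 5.10, which is called the dim level here. The numbers in the sample titles fall into 2 runs, each with 2 old and 2 young mice. Per the labels, each collection day had this makeup too, but whether a run is a day is not stated. In bulk RNA of sorted cells, fewer cells that express a gene and less RNA per cell cannot be told apart.

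Old and young fibroblasts were compared to see whether these readouts of the pathway differ with age. Transcripts of the feedback inhibitors Nkd2, Apcdd1 and Axin2 had lower means in old mice on every probe set, with differences of -0.14 to -0.61 on the log2 scale. The DNA-binding factors Tcf7l1 and Tcf7l2 had slightly higher means on 5 of their 6 probe sets. None of these differences passed the threshold. Of the 21 probe sets, 0 were called lower and 0 higher by limma (adjusted p under 0.05 over all 45037 non-control probe sets), where 1.35% of all probe sets were called lower and 1.23% higher. At an unadjusted p under 0.05, 9 of the 21 were lower in old mice and 1 higher, against 7.21% and 6.21% of all probe sets. The 9 were every probe set of Apcdd1 and Axin2 and 1 each of Nkd1, Nkd2, Lef1 and Notum. Probe sets of the same gene are not independent, and the genes were chosen with earlier results of these data known. These shares are therefore a description and not a test. The lowest limma adjusted p among the 21 was 0.0586 (Nkd2).

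All 21 were tested without a filter, and 19 lie above the dim level, as do 22511 of all 45037 probe sets tested. Over the 21 probe sets the median difference, old minus young, was -0.14, against 0.01 over all probe sets tested. It was -0.22 without old replicate 2. The differences ranged from -0.61 to 0.23, and 13 (61.9%) were below 0, against 47.5% of all probe sets. The 13 probe sets of the inhibitor genes Axin2, Nkd1, Nkd2, Apcdd1 and Notum had a median of -0.29, with 11 below 0. Their mean level per array was 7.50, 7.77, 7.47 and 7.60 in old mice, against 7.80, 7.98, 7.75 and 7.89 in young mice, so that old replicate 2 was the only old array above a young one. In each age that mean was highest in replicate 2. These 2 mice have neighbouring title numbers (1331 in old, 1330 in young), but whether they were handled together is not stated. The 7 probe sets of Lef1, Tcf7l1 and Tcf7l2 had a median of 0.13, with 2 below 0. Old and young arrays did not overlap for 4 probe sets, 1 each of Axin2, Nkd1, Nkd2 and Apcdd1. In all 4 the old arrays were lower, and such a gap was present in 4.48% of all probe sets in that direction and in 3.96% in the other.

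**Figure D1:**
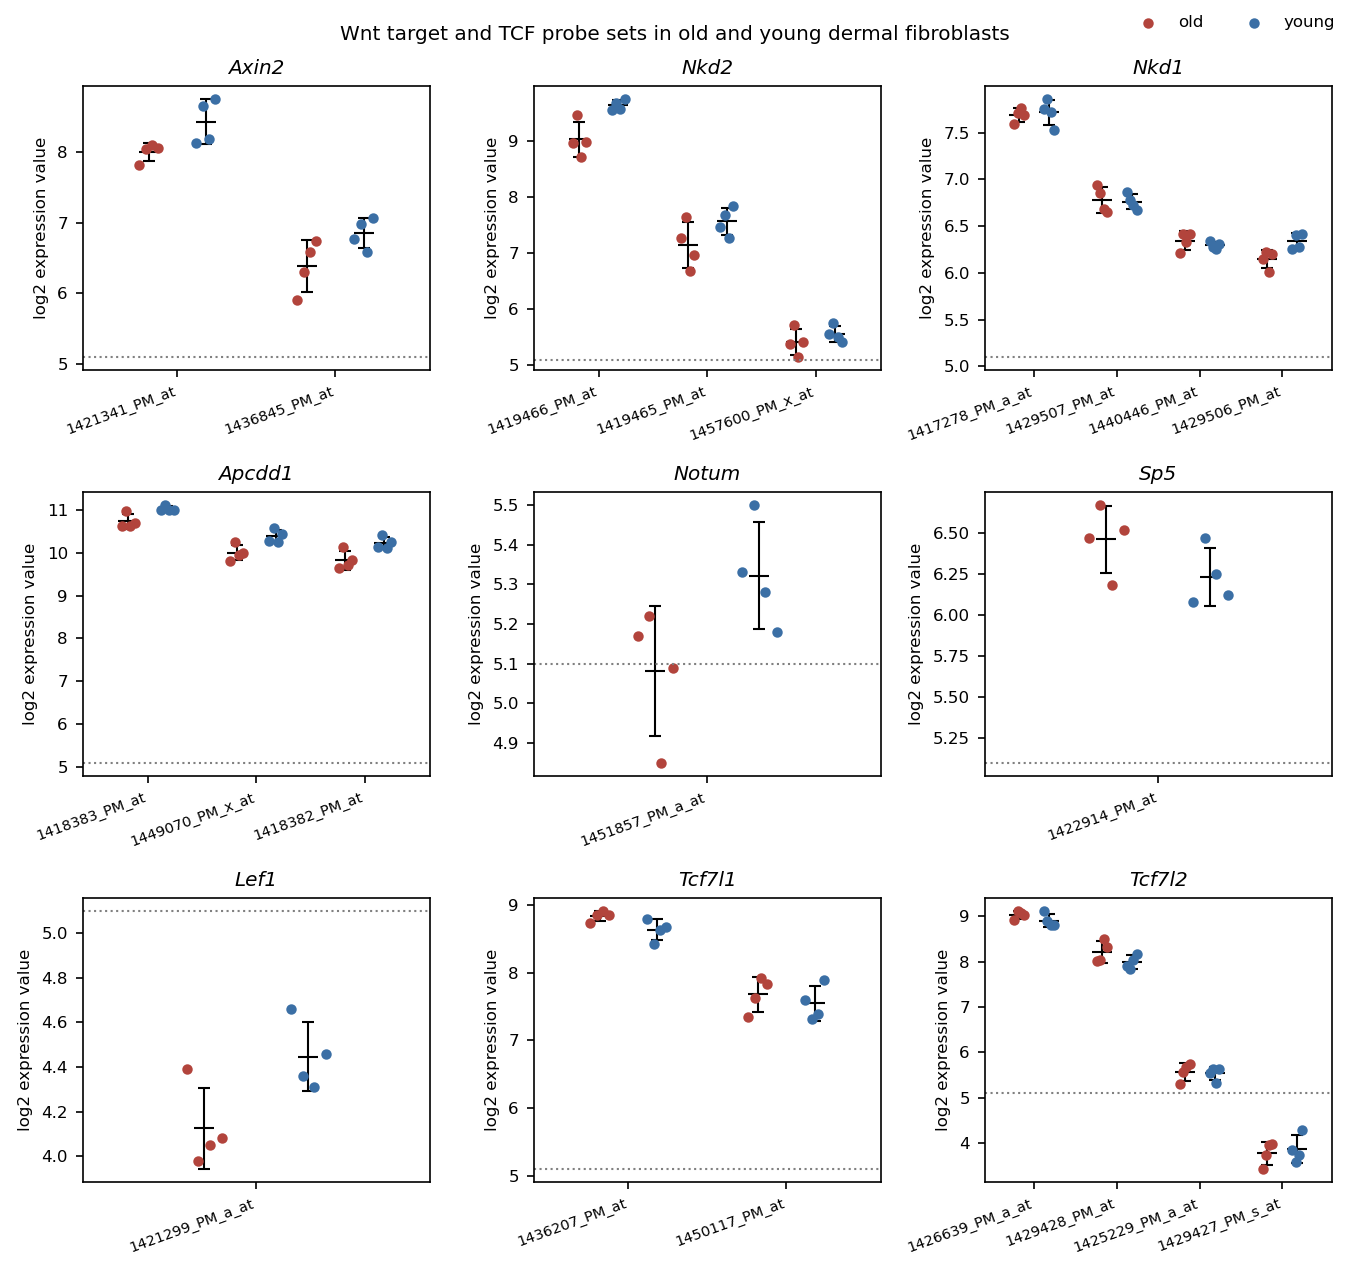
Deposited log2 values (y axis, scale differs between panels) of all 21 probe sets (x axis) by gene, with 1 point per array, the mean and SD of each age (n = 4) and the dim level of 5.10 as a dotted line. Old arrays lie below all young arrays on 1 probe set each of Axin2, Nkd2, Nkd1 and Apcdd1, while Lef1 lies below the dim level in every mouse.

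Nkd2 encodes a protein that binds Dishevelled and dampens Wnt signalling. Its brightest probe set (1419466_PM_at) had log2 values of 8.98, 9.47, 8.72 and 8.99 in old mice, against 9.57, 9.69, 9.58 and 9.76 in young mice. Every old array was thus below every young array, with old replicate 2 closest to the young ones. The means were 9.04 ± 0.31 in old and 9.65 ± 0.09 in young mice (SD, n = 4 each). The difference was -0.61 ± 0.14 (SE), or 0.655-fold, with a 95% interval of -0.93 to -0.29 (limma adjusted p = 0.0586). The result lay on both sides of the threshold. The limma adjusted p was 0.0437 with only the brightest probe set of each gene in the fit, where 2.15% of 17097 genes were called lower, and 0.0468 with the run of title numbers as a block, where 2.09% of probe sets were called lower. Without old replicate 2 the difference was -0.75 (adjusted p = 0.00972), and without each other mouse in turn adjusted p lay between 0.11 and 0.143.

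The other probe sets of Nkd2 gave smaller differences. The middle one (1419465_PM_at) had 7.27, 7.65, 6.69 and 6.97 in old mice, against 7.48, 7.69, 7.28 and 7.84 in young mice, so the groups overlapped. Its difference was -0.43 ± 0.20 (SE, limma adjusted p = 0.403). The dimmest (1457600_PM_x_at) had 5.38, 5.73, 5.15 and 5.42 in old mice, against 5.56, 5.76, 5.51 and 5.42 in young mice. On all 3 probe sets old replicate 3 was the lowest array and old replicate 2 the highest of the old ones. The dimmest differed by -0.14 ± 0.12 (adjusted p = 0.738). With the mean of the 3 probe sets the difference was -0.39 (limma adjusted p = 0.196). The 5 genes whose values deviated from the age means most like the brightest Nkd2 probe set over the 8 arrays were Plod1, Sipa1l2, Map2k1, Stab2 and L3mbtl2, with Pearson r of 0.98, 0.98, 0.98, 0.97 and 0.96. They were picked as the highest of 16068 probe sets above the dim level over only 8 arrays. Such r values can arise from that selection alone, and a link with Nkd2 was not tested. The age differences of these 5 genes lay between -0.13 and 0.30 with no call.

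Nkd1, the paralog of Nkd2, has 4 probe sets. The brightest (1417278_PM_a_at) had 7.59, 7.71, 7.76 and 7.69 in old mice, against 7.75, 7.86, 7.72 and 7.53 in young mice. These values overlapped, and the difference was -0.03 ± 0.08 (SE, 95% interval -0.21 to 0.15). On 1 probe set (1429506_PM_at) the old values of 6.15, 6.22, 6.01 and 6.20 lay below the young values of 6.25, 6.40, 6.28 and 6.42. There the difference was -0.19 ± 0.07 (limma adjusted p = 0.250). The remaining 2 lay at 6.65 to 6.94 in old and 6.67 to 6.86 in young mice (1429507_PM_at) and at 6.21 to 6.42 in old and 6.26 to 6.34 in young mice (1440446_PM_at). They differed by 0.02 and 0.05, so the probe sets of Nkd1 do not share a direction. The direction of the brightest also turned, to 0.0031, with renewed quantile normalization.

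Axin2 encodes a scaffold of the complex that degrades beta-catenin and is a direct target of the pathway in many tissues. Its brighter probe set (1421341_PM_at) had 7.81, 8.04, 8.10 and 8.05 in old mice, against 8.12, 8.65, 8.19 and 8.75 in young mice. All old arrays were below all young arrays, by as little as the step between 8.10 and 8.12. The young mice fell into a lower and a higher pair, and the SD was 0.13 in old mice, against 0.32 in young mice. The difference was -0.43 ± 0.15 (SE), or 0.743-fold, with a 95% interval of -0.76 to -0.10 (limma adjusted p = 0.211). The dimmer probe set (1436845_PM_at) had 5.90, 6.30, 6.59 and 6.74 in old mice, against 6.77, 6.98, 6.59 and 7.06 in young mice. It differed by -0.47 ± 0.18 (adjusted p = 0.273), with old replicate 3 level with young replicate 3. Both probe sets of Axin2 thus gave a like size without passing the test.

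Apcdd1 encodes a membrane-bound Wnt inhibitor and marks upper dermal fibroblasts in mouse skin. Its 3 probe sets gave similar differences. The brightest (1418383_PM_at) had 10.61, 10.97, 10.62 and 10.70 in old mice, against 10.98, 11.11, 10.98 and 10.98 in young mice. The groups were parted by 0.01 at old replicate 2. The difference was -0.29 ± 0.09 (SE), or 0.819-fold (limma adjusted p = 0.151). The next (1449070_PM_x_at) lay at 9.81 to 10.24 in old mice, against 10.24 to 10.57 in young mice. The third (1418382_PM_at) had 9.64, 10.13, 9.70 and 9.82 in old mice, against 10.12, 10.40, 10.10 and 10.24 in young mice. These differed by -0.38 ± 0.11 (limma adjusted p = 0.119) and -0.39 ± 0.12 (adjusted p = 0.135), each with old replicate 2 reaching the range of the young mice. Without that mouse, the differences of 1418383_PM_at and 1418382_PM_at were -0.37 and -0.50 and both passed (limma adjusted p = 0.0417 and 0.0454), so that with Nkd2 3 of the 21 probe sets were called lower, where 0.901% of all probe sets were. Without any other mouse, 0 were called.

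Notum encodes a secreted esterase that inactivates Wnt ligands by removing their lipid. Its probe set (1451857_PM_a_at) had 5.17, 5.22, 4.85 and 5.09 in old mice, against 5.33, 5.50, 5.28 and 5.18 in young mice. These values lie around the dim level and overlap, and the difference was -0.24 ± 0.10 (SE, limma adjusted p = 0.318). Sp5, a zinc-finger transcription factor of the Sp family, is also a Wnt target. Its probe set (1422914_PM_at) had 6.47, 6.67, 6.18 and 6.52 in old mice, against 6.08, 6.47, 6.25 and 6.12 in young mice. The groups overlapped and the difference was 0.23 ± 0.12 (SE, 95% interval -0.04 to 0.50, limma adjusted p = 0.476).

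**Figure D2:**
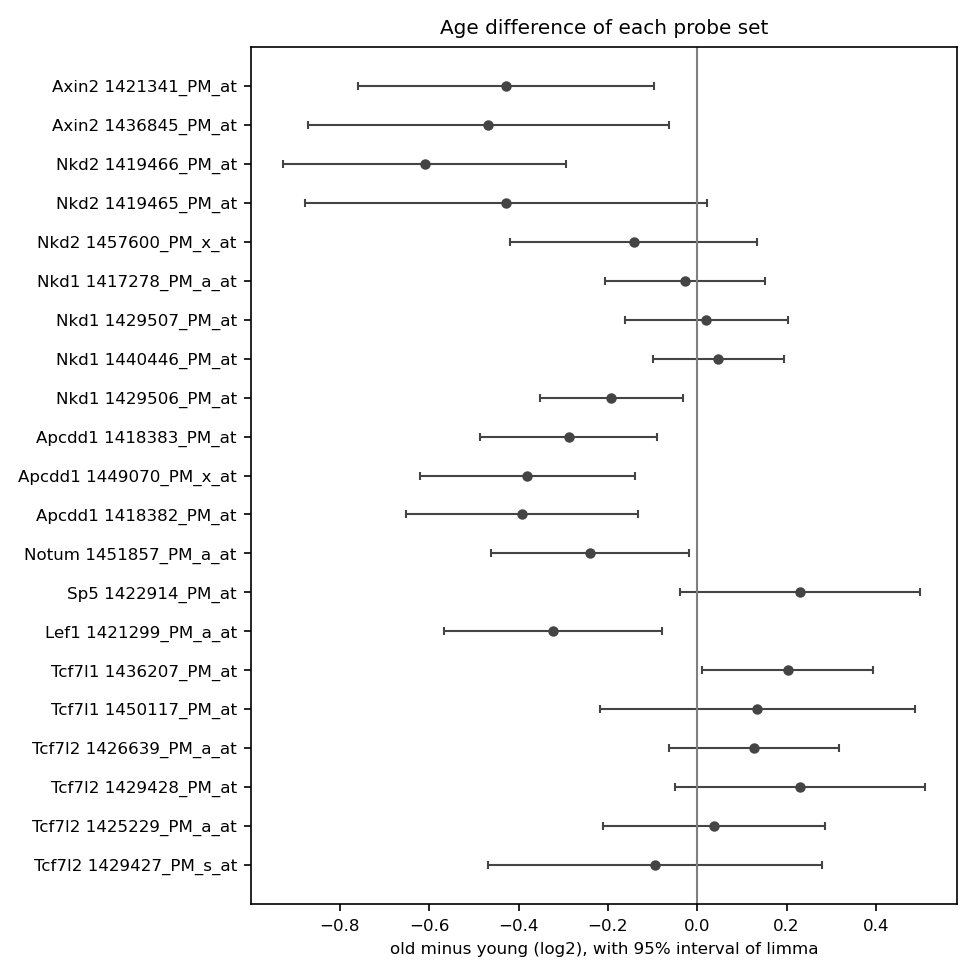
Difference of each probe set, old minus young on the log2 scale (x axis), with the 95% interval of limma (n = 4 against 4). Intervals of 10 of the 21 leave out 0 before adjustment for the number of probe sets tested, and the largest difference is -0.61 for Nkd2.

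Among the LEF/TCF factors, Lef1 encodes an activator that is abundant in the dermal papilla and in lymphocytes. Its only probe set (1421299_PM_a_at) had 4.39, 3.98, 4.05 and 4.08 in old mice, against 4.66, 4.36, 4.31 and 4.46 in young mice. Old replicate 1 lay inside the young range and the other old mice below it. The difference was -0.32 ± 0.11 (SE, limma adjusted p = 0.195). All 8 values are below the dim level and close to 3.91, the median that control probes without a specific target gave. T-cell genes, which would mark lymphocytes, were dim in both ages for 7 of 9 measured. Their mean level was 5.44 to 5.61 in old and 5.52 to 5.57 in young mice, with Cd3e at 4.13 in old and 4.09 in young mice. Of this list, only Thy1, which is also in the fibroblast list, was called (lower).

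Tcf7l1 encodes a factor that acts mainly as a repressor of Wnt targets. Its brighter probe set (1436207_PM_at) had 8.73, 8.86, 8.91 and 8.85 in old mice, against 8.80, 8.43, 8.63 and 8.68 in young mice. The old arrays were the higher ones except for old replicate 1, which lay below young replicate 1. The difference was 0.20 ± 0.08 (SE, 95% interval 0.01 to 0.39, limma adjusted p = 0.334). The dimmer one (1450117_PM_at) lay at 7.34 to 7.93 in old and 7.31 to 7.89 in young mice and differed by 0.14 ± 0.16 (adjusted p = 0.830). Tcf7l2 encodes a factor that works with beta-catenin in many tissues, and its transcripts are spliced in many forms. Its brightest probe set (1426639_PM_a_at) had 8.92, 9.11, 9.07 and 9.03 in old mice, against 9.12, 8.89, 8.81 and 8.80 in young mice, so young replicate 1 was above every old array. The difference was 0.13 ± 0.08 (SE, 95% interval -0.06 to 0.32). The second (1429428_PM_at) had 8.02, 8.03, 8.51 and 8.33 in old mice, against 7.91, 7.84, 8.04 and 8.18 in young mice. Only old replicates 3 and 4 exceeded all young arrays, and the difference was 0.23 ± 0.12 (SE, limma adjusted p = 0.499). The others differed by 0.04 (1425229_PM_a_at) and, for a probe set below the dim level, -0.10 (1429427_PM_s_at), with adjusted p of 0.950 and 0.904.

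Within the 2 runs of title numbers, 18 of the 21 probe sets kept the sign of their difference. The share over all probe sets was not computed, and several of the 21 belong to the same gene. The brightest probe set of Nkd2 differed by -0.41 in run 1 and by -0.82 in run 2. The dimmer probe set of Axin2 differed by -0.78 in run 1 and -0.16 in run 2, and its brighter one by -0.46 in run 1 and -0.40 in run 2. Lef1 had -0.33 in run 1 and -0.32 in run 2, and the brightest probe set of Apcdd1 -0.26 in run 1 and -0.32 in run 2. The 3 with opposite signs were probe sets of Nkd1 (2) and Tcf7l2 (1), all within 0.23 of 0. In a limma fit with an interaction of age and run, 0 of the 45037 probe sets passed an adjusted p of 0.05, and 6.76% had an unadjusted p under 0.05. Of the 21, only the dimmer Axin2 probe set was among these (unadjusted p = 0.0491, adjusted p = 0.737).

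**Figure D3:**
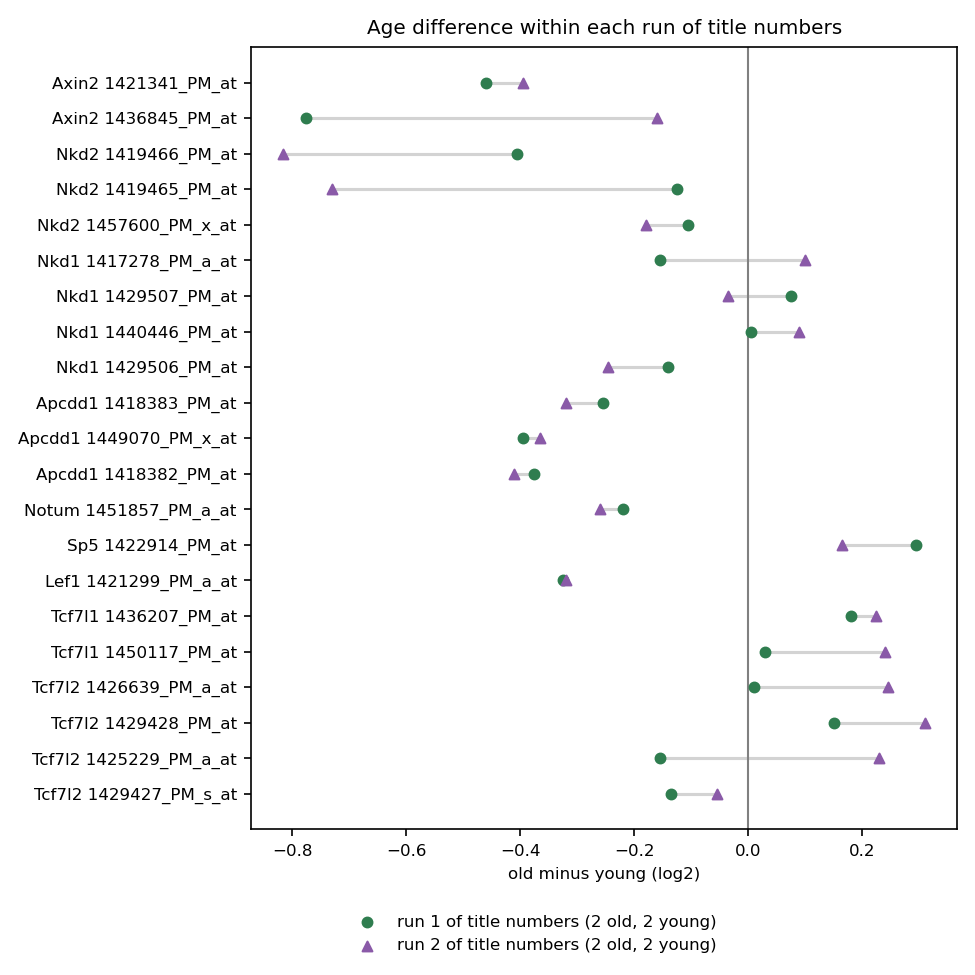
Difference of each probe set, old minus young on the log2 scale (x axis), computed within each run of title numbers from 2 old and 2 young mice. The runs share a sign for 18 of the 21 probe sets, and are furthest apart for the dimmer Axin2 probe set and the middle Nkd2 probe set.

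Levels of other cell types were set beside these differences. Of 11 measured markers of the dermal papilla and dermal condensate, 3 were called lower in old mice and 0 higher. Over all probe sets, 1.35% were called lower and 1.23% higher. Each marker was read on its brightest probe set. With only the brightest probe set of each gene in the fit, 368 of 17097 genes (2.15%) were called lower and 311 higher. The 3 markers were Cd24a, Crabp1 and Trps1, at -2.74, -2.32 and -0.84 (limma adjusted p = 0.00134, 0.000378 and 0.0103). Cells bearing CD24, the product of Cd24a, were sorted out in both ages. The mean level of that list, the 3 called genes included, was 5.59 to 5.68 in old and 6.25 to 6.33 in young mice, without overlap. Of its markers without a call, Inhba, Ndnf and Hey1 differed by -0.915, -0.26 and -0.245, and Alx4 and Hhip by 0.01 each. Sox2, Corin and Prom1 of the same list averaged 3.37, 3.82 and 3.90 in old and 3.40, 3.85 and 3.88 in young mice, all below the dim level. Keratinocyte and hair follicle markers had a mean level of 5.49 to 6.64 in old and 5.27 to 5.83 in young mice, and 0 of 12 were called. Old replicate 3 was the highest in this list and the lowest for Nkd2. Young replicate 4 was the highest young array in this list, at 5.83, and the highest of all arrays on the brightest Nkd2 probe set, at 9.76. Without old replicate 3 the Nkd2 difference was -0.50 (limma adjusted p = 0.110). Melanocyte markers had mean levels of 5.45 to 5.53 in old and 5.04 to 5.23 in young mice, also without overlap, with 1 of 10 called (Mlana, higher). That gap rests largely on Mlana, which differed by 2.875. Mitf differed by 0.57 and the other markers of the list by -0.085 to 0.15, and the median difference over the list was 0.07. The dermal fibroblast list itself had 10.45 to 10.61 in old and 10.65 to 10.76 in young mice, with Thy1 and Twist2 of 12 called lower. The Schwann cell list had 6.95 to 7.02 in old and 7.07 to 7.20 in young mice, with 0 of 6 called. Neither the fibroblast nor the Schwann cell list overlapped between the ages, but the median differences of their markers were only -0.05 and -0.01. In the Schwann cell list, Egr2 and Ngfr differed by -0.63 and -0.44, and the other measured markers by -0.01 to 0.065. Endothelial, macrophage, pericyte and adipocyte lists overlapped between the ages, with 1 call among them, the pericyte marker Kcnj8 (1.16, limma adjusted p = 0.00588). The part of these cell types in the differences of the Wnt targets was not tested.

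**Figure D4:**
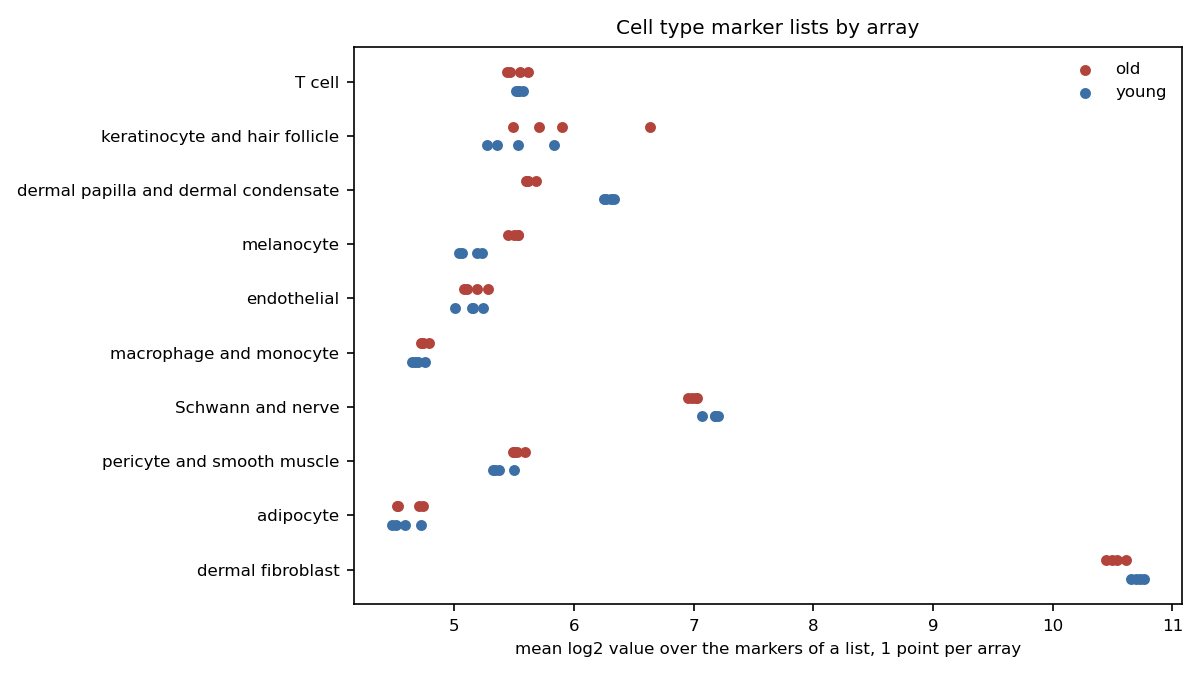
Mean log2 value over the markers of each cell type list (x axis), with 1 point per array and old above young. The dermal papilla and dermal condensate, dermal fibroblast and Schwann lists are lower in all 4 old arrays than in any young one. The melanocyte list, whose gap rests largely on Mlana, is higher in all 4, and the keratinocyte list is highest in old replicate 3 at 6.64.

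Around these genes, 7 further lists of Wnt pathway genes held 124 measured genes of 131, on 250 probe sets. Of these probe sets 6 were called lower and 5 higher, for 6 and 4 genes, where 1.35% of all probe sets were called lower and 1.23% higher. Their median difference was 0.00. Leaving out single mice gave 2 to 8 lower and 3 to 4 higher, with 2 and 3 without old replicate 4. Rspo4, an R-spondin, and Dkk2, a secreted antagonist, fell, while Lgr5, an R-spondin receptor, and Sfrp1, a secreted antagonist, rose. Rspo4 had 6.55, 6.65, 6.73 and 6.40 in old mice, against 7.85, 8.34, 8.81 and 8.20 in young mice (-1.72 ± 0.18 SE, limma adjusted p = 0.00173). Dkk2, Sfrp1 and the brighter probe set of Lgr5 differed by -1.60, 1.05 and 3.08 (limma adjusted p = 0.00858, 0.00578 and 0.00205). These 4 kept their calls under every alternative tried. Among the ligands, Wnt2b fell (-0.56, adjusted p = 0.0201) and Wnt5b rose on its dim probe set (0.40, adjusted p = 0.0217). The brighter probe set of Wnt5b had 0.24 with overlapping groups (limma adjusted p = 0.223). Wnt2b lost its call without old replicates 2 or 4 or young replicate 1, and the dim probe set of Wnt5b without old replicates 2, 3 or 4 or young replicate 3 (limma adjusted p up to 0.0641 and 0.0628).

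Of 72 probe sets of other reported Wnt targets, 3 were called lower, for the receptor gene Tnfrsf19, the bHLH factor gene Tcf4 and Ccn4, a secreted matricellular protein, and 2 higher, both of Lgr5, which is also in the R-spondin list, against 1.35% lower and 1.23% higher of all probe sets. The symbol Tcf4 here is not Tcf7l2, for which the same short name is also used. Tnfrsf19 had 6.31, 6.88, 6.57 and 6.65 in old mice, against 7.14, 7.75, 7.23 and 7.44 in young mice on the probe set that passed (-0.79, limma adjusted p = 0.0299). Its other probe sets differed by -0.73 and -0.67 without passing. Under alternatives, the first passed with the run as a block (limma adjusted p = 0.0342), among others. The second passed with dim probe sets left out (limma adjusted p = 0.0405). Tcf4 and Ccn4 differed by -0.55 and -0.68 (limma adjusted p = 0.0225 and 0.0334). Their other probe sets did not pass in the fit without a block, with -0.67 and -0.28 for Tcf4 and -0.65 for Ccn4, though the first of Tcf4 did with the run as a block (limma adjusted p = 0.0317). That of Ccn4 passed without young replicate 4 (limma adjusted p = 0.0317). Each of the 3 calls of Tnfrsf19, Tcf4 and Ccn4 was lost without most of the single mice. Tnfrsf19 and Ccn4 kept theirs only without old replicate 2 or young replicate 1, and Tcf4 only without old replicate 2 or young replicate 4 (limma adjusted p up to 0.07995, 0.0927 and 0.0689). Of 41 probe sets of TCF cofactors and repressors, 1 was called (higher, against 1.23% of all probe sets), of the corepressor gene Tle4, which rose by 0.45 on it (limma adjusted p = 0.0316). The other probe sets of Tle4, the brightest included, had 0.31 and 0.17 (limma adjusted p = 0.362 and 0.593). The called one lost that call when any mouse but young replicate 3 was left out and with a variance prior by mean level (limma adjusted p up to 0.0879). Tle3 had 0.50 on its brightest probe set (limma adjusted p = 0.0718). That probe set passed with the run as a block and with dim probe sets left out (limma adjusted p = 0.0496 and 0.0492).

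None of the 56 probe sets of the destruction complex and its partners and none of the 28 of Frizzled and LRP receptors were called by limma. At an unadjusted p under 0.05 these lists held 3 lower and 5 higher, and 6 lower and 1 higher, where 7.21% of all probe sets were lower and 6.21% higher. With the run of title numbers as a block, which called 2.09% of all probe sets lower and 1.71% higher, 1 probe set of Btrc, a subunit of a ubiquitin ligase for beta-catenin, was called higher (0.28, limma adjusted p = 0.0426) and 1 of the receptor gene Fzd3 lower (-0.56, limma adjusted p = 0.0228). Both probe sets lay below the dim level on average, at 5.06 for Btrc and 4.97 for Fzd3. The brightest probe sets of Btrc and Fzd3 differed by 0.07 and -0.28. The called probe set of Fzd3 also passed with array weights (limma adjusted p = 0.0418). The other probe sets of both genes passed in neither fit. Beta-catenin itself (Ctnnb1) had 10.62, 10.54, 10.63 and 10.74 in old mice, against 10.37, 10.35, 10.46 and 10.12 in young mice on its brightest probe set. Every old array was the higher one, but the difference of 0.31 ± 0.08 (SE) had limma adjusted p = 0.104, and its other probe sets differed by 0.15 and 0.15. Of the receptors, Fzd8, Fzd3 and Ror1 had the smallest p, with limma adjusted p of 0.0944, 0.0969 and 0.101. Those probe sets of Fzd3 and Ror1 lay below the dim level on average.

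**Figure D5:**
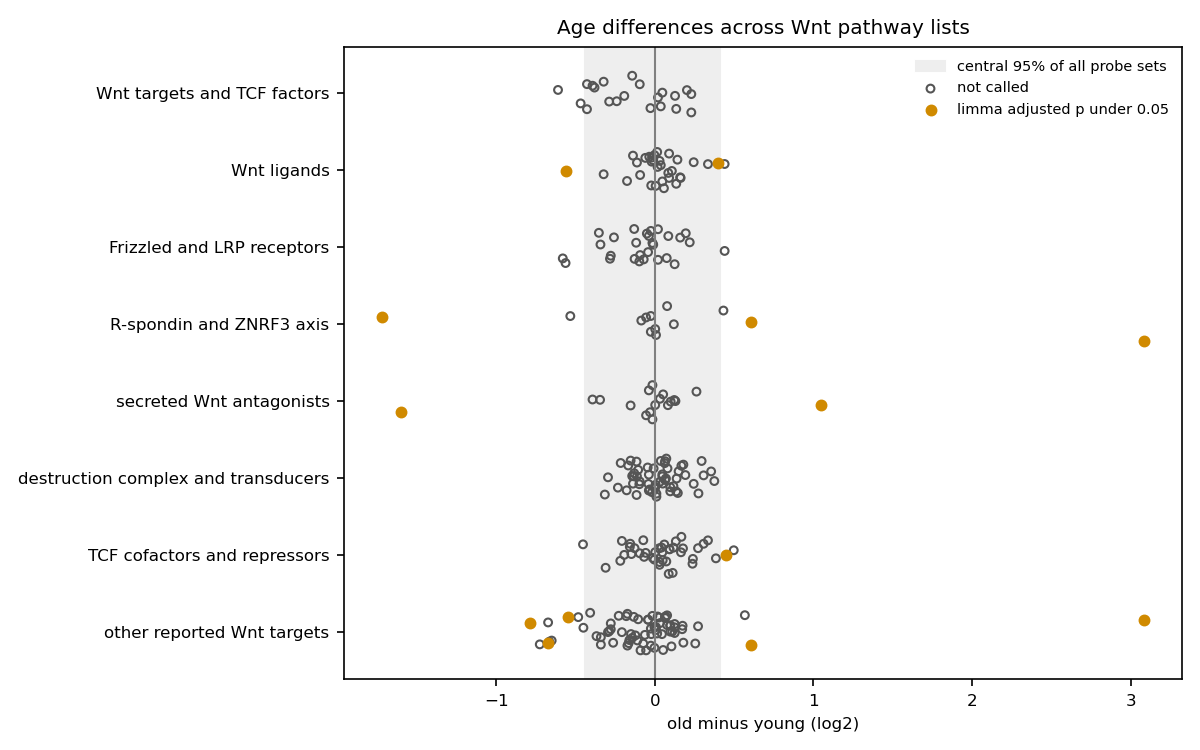
Difference, old minus young on the log2 scale (x axis), of every probe set of the Wnt target and TCF genes (top row) and of 7 pathway lists, with called probe sets filled and the central 95% of all probe sets shaded. The top row holds no called probe set, and the calls furthest from 0 are Lgr5, Rspo4 and Dkk2.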

How the data were processed

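Each array measured RNA of sorted dermal fibroblasts from 1 mouse. The authors deposited 1 log2 value per probe set and array. The submitters' processing notes name RMA and affy, without versions, parameters or filters. RMA in general adjusts background, equalises the arrays' distributions and summarises each probe set. The number of arrays limits the precision. Names came from the platform annotation, in which 28898 of the 45037 non-control probe sets had 1 symbol, 551 several and 15588 none. Of those with 1 symbol, 28689 matched a gene identifier in a RefSeq table and 0 symbols changed.

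Old and young mice (n = 4 each) were compared on all 45037 non-control probe sets with limma 3.58.1 in R 4.3.3 (lmFit, eBayes, 2-sided, Benjamini-Hochberg over all of them, threshold 0.05). Differences are old minus young. The 104 control probe sets were left out. Samples were grouped by the age in their titles, and replicates numbered in accession order. The dim level is the median of all probe sets' means. The rule for naming took all probe sets of the 10 genes and, per pathway list, the genes past the threshold or the 3 with the smallest p. Of these, Wls, Rspo1, Tnks2 and Hic1 had no call and are not described above, and Wif1 is named only among the flagged results. The brightest probe set of Wls (0.335) passed with the run as a block (limma adjusted p = 0.0279). The genes and lists were chosen with earlier results of these data known. Promoter letters were searched in Python 3.11.15. Alternatives changed the variance prior, array weights, dim filter, handling of probe sets, scaling, block, threshold and mice. On simulated arrays of 45037 probe sets, old against young, 64%, 90%, 100% and 100% of 50 probe sets changed by 0.5, 1, 2 and 3 (log2) were recovered, 6.35% of calls were false and 0 calls were made with no change.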

Additional observations from a re-analysis of the deposited data

Results flagged for a closer look

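In 138 groups of 4 arrays, 7 held a mouse whose gap to its nearest neighbour exceeded Dixon's 95% critical share of the group's range, and chance alone gives about 1 in 20. The only case among the Wnt target and TCF genes was Apcdd1 (1418383_PM_at), with young replicate 2 at 11.11 and the other young mice at 10.98. Old replicate 2 was the far array in 3 cases: Fzd3 (1421157_PM_at) at 5.98, nearest 5.61, Tcf4 (1424089_PM_a_at) at 9.81, nearest 9.55, and Ccn4 (1448594_PM_at) at 7.18, nearest 6.89. Ccn4 (1448593_PM_at) was at 7.55 in young replicate 4, nearest 8.39. Wif1 (1425425_PM_a_at) was at 4.56 in young replicate 3, nearest 4.07, and Wnt5b (1439373_PM_x_at) at 3.99 in young replicate 1, nearest 4.16.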

How the results depend on the processing

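Of the 21 probe sets of the Wnt target and TCF genes, 18 were called under none of the 18 alternatives, and 17 kept their sign under all of those run on them. The count called lower, 0, was 1 (Nkd2, 1419466_PM_at) with a variance prior by mean level, with dim probe sets left out, with the brightest probe set per gene, with the run of title numbers as a block and at adjusted p under 0.10, and 0 to 3 without single mice (3 without old replicate 2). Adjusted p of that probe set ran from 0.00972 to 0.196. The count called higher was 0 throughout. The median difference of -0.14 was -0.24 with the brightest probe set or the mean per gene, and -0.2175 to -0.1292 without single mice, furthest without old replicate 2. Signs turned for Tcf7l2 (1429427_PM_s_at, 0.057 with array weights, -0.1892 to 0.0442 without single mice), Tcf7l2 (1425229_PM_a_at, -0.0325 to 0.13 without single mice) and Nkd1 (1417278_PM_a_at, 0.0031 with renewed quantile normalization, -0.0892 to 0.0208 without single mice, and 1429507_PM_at, -0.0281 with array weights, -0.0333 to 0.0633 without single mice). Of the pathway lists' named probe sets, Btrc (1457305_PM_at) turned to -5e-04 with array weights and -0.0013 with renewed quantile normalization, -0.0425 to 0.0608 without single mice. Without single mice, Btrc 1425680_PM_a_at and 1443142_PM_at and Fzd3 1449730_PM_s_at, 1438101_PM_at and 1434788_PM_at also turned (ranges -0.0683 to 0.175, -0.0708 to 0.0058, -0.1167 to 0.0333, -0.0275 to 0.0758, -0.05 to 0.0633).

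Over all probe sets, 608 were called lower and 555 higher. The counts were 368 and 311 with the brightest probe set per gene and 401 and 354 with the mean per gene, where fewer features were tested, and 1075 and 911 at adjusted p under 0.10. The block by run gave 941 and 771, array weights 873 and 840, and leaving out single mice 352 to 595 and 303 to 576. On the pathway lists, 6 lower and 5 higher were 10 and 9 at adjusted p under 0.10, 9 and 8 with the block, 4 and 2 with the brightest probe set, and 2 to 8 and 3 to 4 without single mice. Leaving out old replicate 4 gave 2 and 3. The causes of these shifts were not tested further. No paired analysis of single mice was run, because the titles give every mouse its own number and name no pairs. The block of 2 runs changed the call of 1 of the 21 probe sets, Nkd2.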
